A study of Mus musculus with 4 samples.

Results

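The genes described here encode the secreted and membrane-bound proteases that cut the matrix between cells, and their main inhibitors. All genes of the count tables whose symbol is Mmp, Adamts or Adamtsl with a number, or Timp with a digit, were taken, apart from 1 gene that is not analysed here. They came to 49 of 32285 genes: 21 matrix metalloproteinases (MMPs), 19 ADAMTS proteases, 5 ADAMTS-like proteins and 4 tissue inhibitors of metalloproteinases (TIMPs). Of the 49, 44 reached 50 UMIs (unique molecular identifiers, each standing for 1 captured RNA molecule) over the kept nuclei of the 4 libraries, and 5 did not. The lowest of the 44, Mmp13, had 64 UMIs and the highest of the 5, Mmp8, had 22.

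Each of 4 mouse groups is represented by 1 library of RNA labelled as nuclear. The protocol in the labels speaks of digested tissue and a viability check on cells instead, so whether a barcode held a nucleus or a cell is not settled, and the word nuclei follows the label of the RNA. BAT sham and BAT surgery are labelled brown adipose tissue, and BeAT sham and BeAT surgery beige adipose tissue; all 4 groups were fed a high-fat diet, and either had the operation or a sham. Libraries of 1 tissue label form a pair, and within a pair the sham value is given first. The series title names the operation as bariatric surgery, without its type, and the strain, sex, age and the number of animals behind a library are not stated in the labels. With 1 library a group no difference could be tested against the spread between animals, so every interval below is a 95% interval of counting error only and no p-value is given.

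Ucp1, the uncoupling protein of thermogenic fat, gave 2 and 0 UMIs in adipocyte-like nuclei of the BAT pair and 3 and 0 in those of the BeAT pair, so the tissue names are used as labels only. After filtering, 9970 nuclei of BAT sham, 9131 of BAT surgery, 9760 of BeAT sham and 5302 of BeAT surgery were used, and any 2 libraries shared 36 to 73 barcodes. The libraries held 23118695 to 60409801 UMIs in all, with medians of 2647 to 5168 UMIs per kept nucleus. BAT surgery stands apart: 5614 of its nuclei were epithelial-like, with genes of the epididymis, against 57 in BAT sham and 0 in both BeAT libraries. The 57 of BAT sham formed cluster 24, which held no nuclei of BAT surgery and was led by other genes, among them Ptn, Wfdc2 and Csn3. They gave 0 UMIs of Gpx5, a gene of the epididymis, so the epithelial-like nuclei of these libraries are alike in class name only. BeAT surgery held 1566 T or NK-like and 1980 B cell-like nuclei, against 195 and 57 in BeAT sham. Free RNA was present and differed between libraries. The adipocyte hormone gene Adipoq stood at 164.4 CPM (UMIs per 1000000 UMIs of the same nuclei) in macrophage-like nuclei of BAT sham and 185.1 in those of BeAT sham, but at 10.9 and 17.1 in the surgery libraries. The epididymal gene Gpx5 stood at 1038.5 CPM in macrophage-like nuclei of BAT surgery and at 0 in those of the other 3 libraries.

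MMPs are zinc proteases that are made as inactive proenzymes and between them cut most matrix proteins. ADAMTS proteases carry thrombospondin repeats and cut proteoglycans, procollagens and microfibril proteins, ADAMTS-like proteins share those repeats but lack the protease domain, and TIMPs block the active site of MMPs and of some ADAMTS proteases. In fat, the matrix around adipocytes is remodelled when the tissue grows, shrinks or is inflamed.

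Promoters are shown for 6 members whose levels carry the results below, because the MMP family is classically divided by whether a promoter holds a TATA box and a nearby AP-1 site. The sequences are from RefSeq on GRCm38.p6, and each is the 150 bases before the start of transcription, 5′ to 3′ on the gene's strand. Capitals mark 3 motifs searched on both strands: the AP-1 site TGANTCA, the TATA box TATAAA and the GC box GGGCGG.
Mmp3, chr9:7445672-7445821, plus strand: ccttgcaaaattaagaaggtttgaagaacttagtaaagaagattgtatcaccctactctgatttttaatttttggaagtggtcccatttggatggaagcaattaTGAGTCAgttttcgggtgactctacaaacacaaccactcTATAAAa
Mmp7, chr9:7691940-7692089, plus strand: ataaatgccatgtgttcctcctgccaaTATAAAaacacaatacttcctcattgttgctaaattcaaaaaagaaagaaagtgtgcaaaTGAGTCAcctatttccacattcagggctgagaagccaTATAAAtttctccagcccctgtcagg
Mmp14, chr14:54431448-54431597, plus strand: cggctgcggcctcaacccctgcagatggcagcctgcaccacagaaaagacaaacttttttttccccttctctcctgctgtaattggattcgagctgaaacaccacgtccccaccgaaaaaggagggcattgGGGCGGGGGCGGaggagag
Mmp28, chr11:83463041-83463190, minus strand: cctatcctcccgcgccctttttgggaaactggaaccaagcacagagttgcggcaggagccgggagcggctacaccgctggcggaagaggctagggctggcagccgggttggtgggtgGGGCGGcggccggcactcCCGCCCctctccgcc
Timp3, chr10:86300262-86300411, plus strand: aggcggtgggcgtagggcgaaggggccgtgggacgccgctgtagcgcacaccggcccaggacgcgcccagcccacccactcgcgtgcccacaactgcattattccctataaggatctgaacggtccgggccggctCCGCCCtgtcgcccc
Adamts9, chr6:92943535-92943684, minus strand: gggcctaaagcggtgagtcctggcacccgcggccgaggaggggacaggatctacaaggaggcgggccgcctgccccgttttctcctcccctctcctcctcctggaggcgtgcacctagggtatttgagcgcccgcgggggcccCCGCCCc

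The Mmp3 and Mmp7 stretches hold an AP-1 match and a TATA box, at positions -46 and -7 for Mmp3 and, for the matches nearest the start, at -63 and -26 for Mmp7. The other 4 hold neither and carry GC boxes. Mmp7 has 2 promoters in the table, and the one not shown, chr9:7692191-7692340, holds none of the 3 motifs. The table held 36 promoters for 34 of the 49 members. Over the 250 bases before the start, AP-1 matches were in 6 of 18 MMP promoters and in 0 of the 18 of the other families, against 6.75% of all 32851 promoters. TATA boxes were in 9 of the 36 member promoters against 12.4% of all, and GC boxes in 20 of 36 against 32.7%. A match is a run of letters and shows no binding. Mmp13, Mmp1b, Mmp3, Mmp10, Mmp8, Mmp27, Mmp20 and Mmp7 lie together on chromosome 9, between 7272514 and 7699585 (mm10).

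Adipose progenitor-like nuclei, the matrix-making stromal cells that also give rise to adipocytes, were the class that most often held a member's highest level. Among members with at least 50 UMIs in the classes of a library, they held the highest level for 16 of 33 in BAT sham, 15 of 33 in BAT surgery, 15 of 30 in BeAT sham and 17 of 25 in BeAT surgery. The interval of the ratio to the class next in order left out 1 for 14, 8, 13 and 13 of these. The members were kept out of the genes used for clustering, so the classes were not made from them. Mmp2, Adamts2, Adamts5, Adamtsl3, Adamtsl5 and Mmp23 were highest in progenitor-like nuclei in all 4 libraries, but the interval to the next class held 1 for Adamtsl3 in BAT surgery, Mmp23 in both surgery libraries and Adamtsl5 in BeAT sham. Adamts9 was highest in endothelial-like nuclei in all 4, Mmp9 in macrophage-like nuclei in the 3 libraries where it reached 50 UMIs, with an interval that left out 1 in BeAT sham only, and Adamts20 in Schwann-like nuclei in the 2 sham libraries that had 50 of them.

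**Figure D1:**
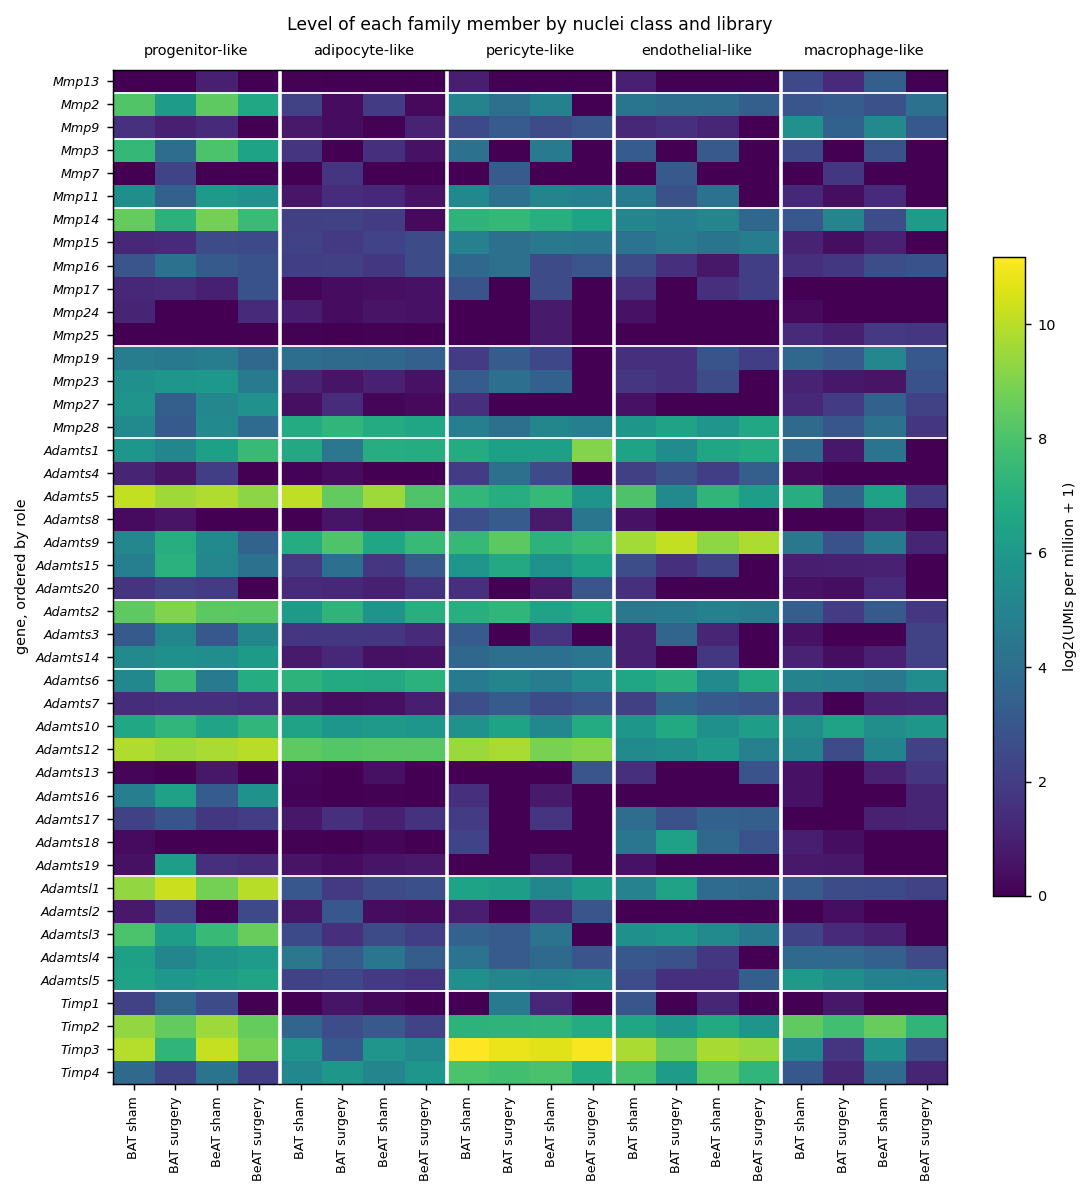
Heat map of log2(CPM + 1) for the 44 members with at least 50 UMIs (rows, by role) in 5 nuclei classes and 4 libraries (columns). Progenitor-like columns are bright for Mmp2, Mmp14, Adamts2, Adamts5, Adamts12, Adamtsl1, Timp2 and Timp3, and Mmp2, Mmp3 and Timp3 are darker there in the surgery libraries.

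The make-up of the progenitor-like class differed between the libraries compared. Cluster 13, led by C7, Col6a5 and Wt1, held 90.1% of the progenitor-like nuclei of BAT surgery and 9.34% of those of BAT sham, where clusters 9 (Pi16, Opcml) and 18 (Smoc2, Lama2) held most. In BeAT, clusters 9, 13 and 18 held 23.8%, 9.34% and 66.9% in sham and 44.2%, 20.6% and 35.2% in surgery. Differences were therefore also taken inside a cluster, a choice made after the data were seen. Adipoq stood in progenitor-like nuclei at 207.3 and 14.8 in the BAT pair and 280.8 and 26.1 in the BeAT pair, and the part of free RNA in the results for these nuclei was not tested.

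Cluster 13 of BAT surgery also carried genes of the mesothelium, the cell layer that lines body cavities. Wt1, a transcription factor gene of that layer, gave 649 UMIs or 353.5 CPM in cluster 13 of BAT surgery and 0 UMIs in cluster 13 of BAT sham. The 7 mesothelial markers summed to 755.5 CPM there, with none at 0, against 17.2 in BAT sham, with 4 of them at 0. The 10 progenitor markers summed to 8223.8 in cluster 13 of BAT surgery and 12911.4 in that of BAT sham. In BeAT the mesothelial sum was 25.5 and 104.7 in cluster 13, 4.82 and 36.8 in cluster 9 and 5.95 and 8.73 in cluster 18. Wt1 alone gave 12 of the 13 UMIs in cluster 13 of BeAT surgery, from 34 nuclei, and 8 of the 11 in cluster 9. In cluster 9 of BAT surgery it gave 32 of 35. Wt1 gave 0 UMIs in clusters 9, 13 and 18 of both shams. With the called doublets kept, 503 of the 547 progenitor-like nuclei of BAT surgery fell in clusters that stayed unnamed, and 42 nuclei of the class were left there, under the 50 needed for a comparison. What mesothelial cells add to the results of this class in either pair, inside cluster 13 too, was not tested.

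In progenitor-like nuclei the summed MMP and TIMP levels were lower in both surgery libraries, while the summed ADAMTS level hardly differed. Summed over the 21 MMPs, the level was 1043.4 and 362.4 CPM in the BAT pair and 1287.7 and 550.4 in the BeAT pair. That is 2.88-fold lower in BAT surgery (interval 2.67 to 3.11) and 2.34-fold lower in BeAT surgery (2.1 to 2.61). The 4 TIMPs summed to 1661.6, 533.1, 1921.1 and 823.3 in the same order. Both sham libraries lay above both surgery libraries for these 2 families. The 19 ADAMTS genes summed to 2721.8, 2929.3, 2450.0 and 2564.9, a surgery to sham ratio of 1.08 (1.05 to 1.11) in BAT and 1.05 (0.992 to 1.1) in BeAT. The 5 ADAMTS-like genes summed to 1080.7, 1425.1, 766.8 and 1554.6, higher in both surgery libraries. A sum is led by its best-counted members, which are given one by one below. The part of gene span, the length of a gene in the annotation, in these sums was not tested.

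**Figure D2:**
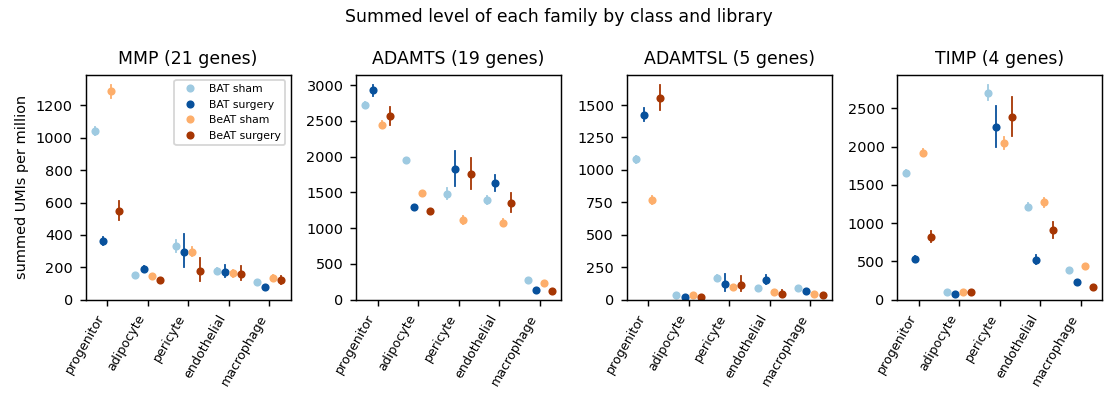
Summed CPM of each family (panels) in 5 classes (x axis) and 4 libraries (colours), with vertical lines for the 95% counting interval. In progenitor-like nuclei the MMP and TIMP sums of both surgery libraries lie under those of both sham libraries, and the ADAMTS sums lie between 2450.0 and 2929.3 in all 4.

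Within cluster 13, the MMP sum was 2.12-fold lower in BAT surgery (1.88 to 2.38) and the TIMP sum 2.15-fold lower (1.95 to 2.37), while the ADAMTS sum was 1.54 times that of sham (1.45 to 1.64). In BeAT, the MMP sum was 2.38-fold lower within cluster 9 (1.96 to 2.9) and 1.71-fold lower within cluster 18 (1.48 to 1.99). The TIMP sum was 2.07-fold lower in cluster 9 (1.82 to 2.37) and 2.63-fold lower in cluster 18 (2.26 to 3.07). The MMP and TIMP sums were thus lower in surgery inside each of the 3 clusters. The ADAMTS-like sum had no common direction: it was lower in cluster 13 of BAT surgery, at a ratio of 0.847 (0.789 to 0.91), and higher in cluster 9 of BeAT surgery, at 2.35 (2.12 to 2.61).

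Member by member, a difference was called on 3 conditions: 50 or more UMIs of the gene summed over the pair, a ratio of CPM of 2 or more in either direction, and an interval that left out 1. In progenitor-like nuclei of BAT, 29 members were measured, of which 8 were higher in surgery and 10 lower, against 7.41% of all measured genes called higher and 11.5% called lower. In BeAT, 25 were measured, of which 5 were higher and 10 lower, against 5.4% and 17.6%. The median log2 ratio of the measured members was -0.35 in BAT and -0.41 in BeAT, beside -0.01 and -0.03 over all measured genes. Inside single clusters, 9 of 24 measured members were called in cluster 13 of BAT, against 15.3% of all measured genes, and in BeAT 10 of 18 in cluster 9 against 27% and 9 of 20 in cluster 18 against 20%. Mmp2, Mmp3, Mmp14, Mmp28, Timp3 and Timp4, called lower in both pairs, span 10.2 to 49.1 kb. Adamts6 and Adamts16, called higher in both, span 208.9 and 114.0 kb. Adamts1, higher in BeAT, spans 9.29 kb, and Adamtsl3, lower in BAT, 278.8 kb. With the trend of all ratios on gene span taken off, 66 called ratios over the classes and pairs tried kept their call, 18 lost it and 1 reversed. The part of gene span in the calls was not tested.

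**Figure D3:**
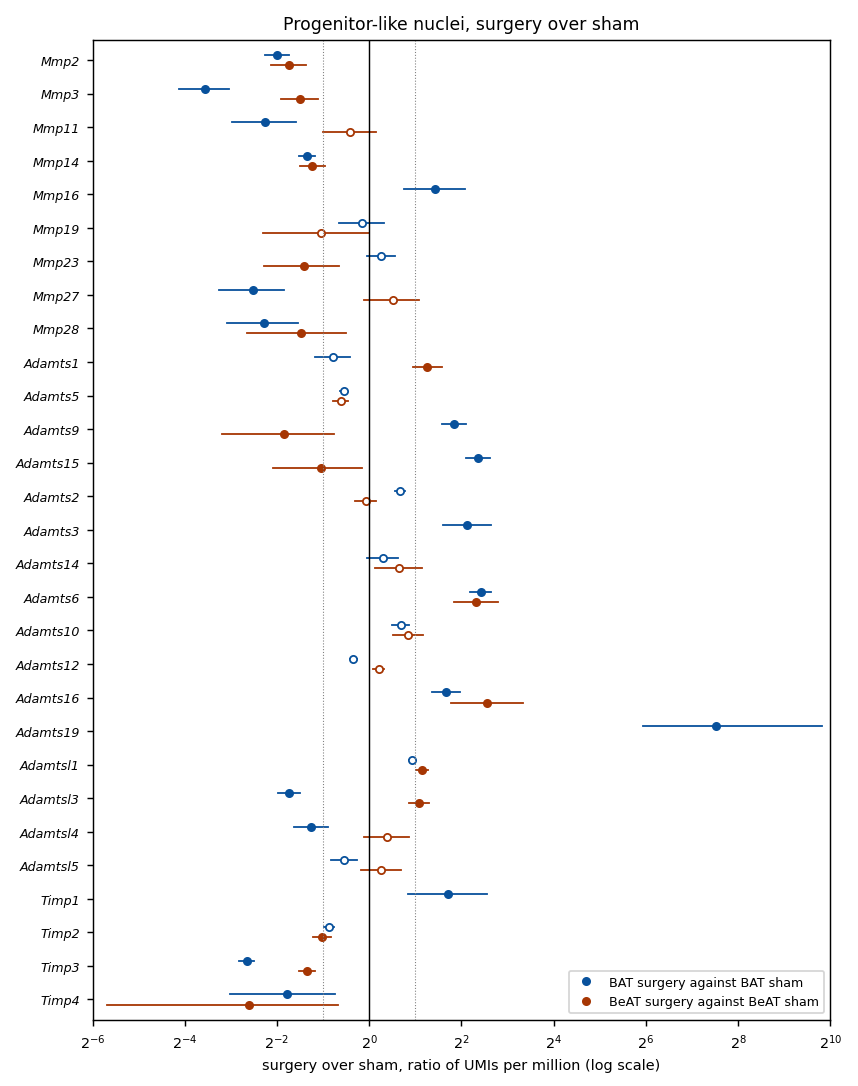
Surgery over sham ratio of CPM in progenitor-like nuclei (x axis, log scale) for each measured member (rows), BAT in blue and BeAT in brown, with 95% counting intervals, filled points for called differences and dotted lines at 2-fold. Mmp2, Mmp3, Mmp14, Mmp28, Timp3 and Timp4 lie left of the lower line in both pairs, and Adamts6 and Adamts16 lie right of the upper line in both.

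The gelatinases cut denatured collagen and basement membrane collagen. Mmp2 (chromosome 8, 92827291 to 92853420, plus strand) stood in progenitor-like nuclei at 276.5 and 69.3 CPM in the BAT pair and 332.4 and 99.7 in the BeAT pair. Both surgery libraries lay below both shams, 3.99-fold lower in BAT (3.36 to 4.76) and 3.34-fold lower in BeAT (2.59 to 4.35). Mmp2 was also lower inside cluster 13 in BAT, from 180.3 to 71.4, and inside clusters 9 and 18 in BeAT, from 251.9 to 107.1 and from 374.1 to 117.8. The other gelatinase, Mmp9, was a macrophage-like gene here and is given with those nuclei.

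Mmp3, the stromelysin that cuts many matrix proteins and activates other proMMPs, showed the lowest surgery value of the progenitor MMPs relative to sham in BAT. Its level was 173.9 and 14.8 in the BAT pair and 252.6 and 88.9 in the BeAT pair. It was 11.8-fold lower in BAT surgery (8.22 to 17.5) and 2.84-fold lower in BeAT surgery (2.17 to 3.78). Inside cluster 13 the BAT values were 131.7 and 16.3. In BeAT the values were 143.4 and 13.4 inside cluster 9, from 119 and 4 UMIs, and 308.1 and 200.7 inside cluster 18, from 621 and 46 UMIs, under the 2-fold limit. The related Mmp11 stood at 46.7, 9.83, 65.1 and 49.1 in the usual order of libraries, called lower in BAT alone, at 4.75-fold (3.03 to 7.88). Inside cluster 13 of BAT it stood at 12.5 and 10.3, from 8 and 19 UMIs, and inside cluster 18 of BeAT at 91.8 and 117.8. Whether the 2 pairs differ for Mmp11 was not tested.

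Mmp14 is the membrane-bound MMP that cuts fibrillar collagen at the cell surface and activates proMMP2 together with TIMP2. Its level in progenitor-like nuclei was 368.8 and 145.1 in the BAT pair and 460.3 and 196.2 in the BeAT pair. It was 2.54-fold lower in BAT surgery (2.25 to 2.88) and 2.35-fold lower in BeAT surgery (1.96 to 2.83), and also lower in cluster 13 of BAT (301.0 against 142.7) and cluster 9 of BeAT (367.6 against 147.2). Inside cluster 18 of BeAT it stood at 503.1 and 292.3, which was not called. The membrane-type Mmp16 went the other way in BAT, at 6.6 and 17.7, a ratio of 2.68 (1.69 to 4.21), but inside cluster 13 its ratio was 0.622.

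Of the remaining MMPs, Mmp28 was lower in both pairs in these nuclei, from 38.0 to 7.87 in BAT and from 38.5 to 13.8 in BeAT. Inside cluster 18 of BeAT it stood at 42.7 and 26.2, which was not called, and inside clusters 13 and 9 it had under 50 UMIs. Mmp28 stood higher in adipocyte-like nuclei, at 114.7, 160.1, 115.3 and 96.5 in the usual order of libraries. What free RNA from adipocytes adds to its values in progenitor-like nuclei was not tested. Mmp27 was lower in BAT, at 53.6 against 9.34, but was not called inside cluster 13, and it stood at 34.6 and 49.1 in BeAT. Mmp23 was lower in BeAT, at 61.5 against 23.0, and stood at 48.4 and 58.0 in BAT. The BeAT ratio, 0.374, became 1.18 when the trend of all ratios on gene span was taken off. Mmp19 was called in neither pair, at 24.8, 22.1, 25.3 and 12.3. The MMPs lower in both pairs were therefore Mmp2, Mmp3, Mmp14 and Mmp28, and of these Mmp2 was called lower in cluster 13 of BAT and in clusters 9 and 18 of BeAT.

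Of the TIMPs, Timp3 and Timp4 were lower in both pairs. Timp3, the TIMP that binds to the matrix and also inhibits ADAM and ADAMTS proteases, stood in progenitor-like nuclei at 982.4 (sham) and 155.4 (surgery) in BAT and at 1163.6 and 456.9 in BeAT. It was 6.32-fold lower in BAT surgery (5.65 to 7.1) and 2.55-fold lower in BeAT surgery (2.26 to 2.88). Inside cluster 13 of BAT the values were 445.2 and 149.8, and inside cluster 18 of BeAT 1528.6 and 558.4. Inside cluster 9 of BeAT they were 508.6 and 314.5, which was not called. The BAT difference was thus 2.97-fold inside the cluster.

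Timp2, which both inhibits MMPs and takes part in activating proMMP2, stood at 662.1, 361.9, 733.7 and 363.3 in the same order of libraries. The 2 surgery libraries lay below the 2 shams, called in BeAT at 2.02-fold lower (1.77 to 2.32) and under the 2-fold limit in BAT. Timp4 was lower in both pairs on few counts, 100 UMIs against 8 in BAT and 58 against 2 in BeAT. It was not called inside cluster 13 of BAT or clusters 9 and 18 of BeAT. In the shams Timp4 stood higher in endothelial-like and adipocyte-like nuclei, and what free RNA adds to its values here was not tested. Timp1 was scarce, at 27 UMIs in BAT sham and 24 in BAT surgery, levels of 3.64 and 11.8. It was called higher in BAT surgery, and inside cluster 13 the ratio was 1.6, from 5 and 23 UMIs.

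The proteoglycan-cleaving ADAMTS genes, which cut aggrecan and versican, did not move as one. Adamts5, the best counted of all members, stood in progenitor-like nuclei at 1118.4 and 759.7 in the BAT pair and 908.4 and 590.3 in the BeAT pair, under the 2-fold limit in both pairs. Inside cluster 18 of BeAT it was called lower, at 932.2 against 440.6, while inside cluster 13 of BAT it stood at 380.9 and 700.5. Adamts9 was 3.57-fold higher in BAT surgery (2.98 to 4.26), at 34.6 against 123.4, and 3.58-fold lower in BeAT surgery (1.69 to 9.11), at 38.5 against 10.7. Adamts15 likewise was 5.12-fold higher in BAT surgery (4.26 to 6.16), at 27.5 against 140.6, and 2.07-fold lower in BeAT surgery (1.11 to 4.27), at 34.9 against 16.9. In BeAT, from few UMIs, the Adamts15 ratio was 1.54 inside cluster 9 (9 and 5 UMIs) and 0.483 inside cluster 18 (91 and 5). Inside cluster 13 the Adamts9 level was 90.9 in sham and 123.6 in surgery, under the 2-fold limit. Adamts15 stayed higher there, at 29.8 against 144.9. Adamts1 was higher in BeAT surgery, at 79.8 against 191.6, with 106.1 and 83.7 inside cluster 9 and 70.4 and 152.7 inside cluster 18, where it was called higher.

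The procollagen N-proteinases trim the amino end of fibrillar procollagens so that fibrils can form. Adamts2 stood at 336.6, 536.5, 329.2 and 312.8 in progenitor-like nuclei and was called in neither pair. Adamts3 was 4.33-fold higher in BAT surgery (3.02 to 6.23), at 7.95 against 34.4, and stood at 21.9 and 37.6 inside cluster 13. In BeAT its levels were 7.37 and 33.7, from under 50 UMIs in both libraries together. Adamts14 was called in neither pair, at 38.8, 47.7, 43.0 and 67.5, and was called higher inside cluster 18 of BeAT, at 53.6 against 113.4.

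Among the other ADAMTS genes, Adamts6 and Adamts16 were higher in both surgery libraries. Adamts6, known for cutting microfibril and latent growth factor binding proteins, stood at 36 (sham) and 191.8 (surgery) in BAT and at 24.4 and 121.1 in BeAT. Its ratio was 5.33 in BAT (4.55 to 6.26) and 4.97 in BeAT (3.58 to 6.9). Inside cluster 13 the BAT levels were 109.7 and 183.6, under the 2-fold limit, and inside cluster 9 the BeAT levels were 47.0 and 164.0. In BeAT, Adamts6 was also called higher in T or NK-like, dendritic-like, endothelial-like and macrophage-like nuclei. In BeAT surgery it stood at 299.9 in T or NK-like and 194.0 in B cell-like nuclei. Ptprc, a leukocyte gene, stood in progenitor-like nuclei at 14.1 in BeAT sham and 231.5 in BeAT surgery. What free RNA adds to the BeAT values of Adamts6 was not tested. Adamts16 stood at 26.5, 83.6, 8.65 and 50.6, and inside cluster 13 it gave 0 UMIs in BAT sham and 144 in BAT surgery, at least 16.7-fold higher. Adamts12 was called in neither pair, at 927.3, 729.8, 871.3 and 999.6, nor was Adamts10, at 100.6, 161.3, 91.4 and 164.0, though inside cluster 18 of BeAT it was called higher, at 97.7 against 200.7.

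Adamts19 (chromosome 18, 58836667 to 59054060, plus strand) gave 151 UMIs in progenitor-like nuclei of BAT surgery and 3 in those of BAT sham. The levels were 74.3 and 0.404, a ratio of 183.8 with a counting interval of 61.7 to 901.1, and 1.92 and 1.53 in the 2 BeAT libraries. Cluster 13 held 139 of the 215 UMIs of the gene in BAT surgery, spread over 46 of its 493 nuclei there, and it held 0 in BAT sham. That library also held Gpx5 at 1188.1 CPM in progenitor-like nuclei, and the part of RNA from epididymal cells in this result was not tested.

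The ADAMTS-like proteins bind microfibrils and have no protease activity of their own. Adamtsl1 stood in progenitor-like nuclei at 655.6 and 1250.0 in the BAT pair and 455.2 and 1004.2 in the BeAT pair. It was higher in both surgery libraries and past the 2-fold limit in BeAT. Inside cluster 9 of BeAT it was called higher too, while cluster 18 held 409.8 and 754.8, under the limit. Adamtsl3 was 3.32-fold lower in BAT surgery (2.82 to 3.93), at 254.7 against 76.7, and 2.11 times sham in BeAT surgery (1.81 to 2.46), at 182.1 against 384.8. Inside cluster 13 the BAT difference was wider, at 855.8 against 75.2. Adamtsl4 was lower in BAT surgery, at 80.9 against 33.9, and its ratio inside cluster 13 was 0.409. Adamtsl5 was called in neither pair.

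Other genes of matrix turnover were read from 5 lists in the same nuclei. Over all measured genes there, 7.41% were called higher and 11.5% lower in BAT, and 5.4% and 17.6% in BeAT. Beside these shares, a count of 0 or 1 in so short a list is not read as a result about the list. Of 11 measured genes for collagens, fibrillins and elastic fibres, 0 were higher and 7 lower in BAT surgery, with a median log2 ratio of -1.23, and 1 was higher and 7 lower in BeAT surgery, with a median of -1.44. Col1a1, a chain of type I collagen, stood at 1120.6 and 350.1 in BAT and at 1757.3 and 303.6 in BeAT, and Lox, which cross-links collagen, was 5.02-fold lower in BAT and 4.04-fold lower in BeAT. The same 7 genes were lower in both pairs: Col1a1, Col1a2, Col3a1, Col4a1, Col4a2, Col6a1 and Lox. Col1a2 and Col3a1 are also among the markers that named the class, and genes of the lists were not kept out of the clustering.

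Of 8 measured activators of matrix proteases, 1 was higher and 1 lower in BAT surgery, and of 7 in BeAT, 2 were higher and 3 lower. The proprotein convertase gene Pcsk5 was higher in both pairs, at 208.4 against 464.7 in BAT and 160.0 against 547.3 in BeAT. Pcsk6, a related convertase, was lower in BAT, at 243.1 against 97.4, and higher in BeAT, at 125.7 against 522.8. Bsg, which encodes the MMP inducer basigin, was 5.34-fold lower in BeAT.

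Of 8 measured inhibitors and clearance receptors, 1 was higher and 3 lower in BAT surgery, and of 6 in BeAT, 0 were higher and 3 lower. Serpinf1 and the cysteine protease inhibitor gene Cst3 were lower in both, Cst3 by 12.4-fold in BeAT, and Spock2 was 4.18-fold higher in BAT. Of 9 ADAM metalloproteases, 0 were higher and 1 lower in BAT, and 1 higher and 2 lower in BeAT, where Adam22 was 4.84-fold higher. Of 6 proteoglycan genes in BAT, 1 was higher and 1 lower, and of 5 in BeAT, 0 were higher and 3 lower. Lum, the collagen-binding proteoglycan lumican, was lower in both pairs, by 3.56-fold in BAT and 10.8-fold in BeAT.

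In adipocyte-like nuclei of BAT, 23 members were measured, with 3 higher and 9 lower in surgery, against 5.33% and 12% of all measured genes. In BeAT, 22 were measured, with 3 higher and 4 lower, against 4.36% and 15.2%. The 3 higher members were Adamts2, Adamts9 and Adamts15 in both pairs, and Adamts5, Adamtsl4 and Mmp2 were lower in both. The median log2 ratio of the members was -0.32 and -0.16, beside -0.07 and -0.09 over all measured genes. Of the adipocyte-like nuclei of BAT surgery, 90.7% lay in cluster 25, which held 1 nucleus of BAT sham, so no comparison inside a cluster could be made in BAT. In BeAT, clusters 1, 5 and 6 held 52.2%, 12% and 35.8% of the class in sham and 7.74%, 25.9% and 66.2% in surgery.

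Adamts5 stood in adipocyte-like nuclei at 1087.0 (sham) and 356.0 (surgery) in BAT and at 733.4 and 273.5 in BeAT. Both surgery libraries lay below both shams, 3.05-fold lower in BAT (2.89 to 3.23) and 2.68-fold lower in BeAT (2.53 to 2.85). Inside BeAT the difference was present in cluster 5, at 1493.8 against 422.4, and in cluster 6, at 688.1 against 207.3. Adamts5 was also lower in endothelial-like and macrophage-like nuclei in both pairs, and its level in B cell-like nuclei was 267.9 in BeAT sham against 6.69 in BeAT surgery. Adipoq moved the same way in those nuclei, from 334.9 to 20.8. What free RNA adds to the Adamts5 values outside adipocyte-like and progenitor-like nuclei was not tested.

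Adamts9, Adamts2 and Adamts15 were higher in both pairs over the whole class. Adamts9 stood in adipocyte-like nuclei at 121.3, 270.5, 93.6 and 188.0, ratios of 2.23 (2.07 to 2.4) in BAT and 2.01 (1.85 to 2.18) in BeAT. Adamts2 stood at 67.6, 151.8, 53.8 and 130.5, ratios of 2.25 (2.04 to 2.47) and 2.42 (2.19 to 2.68). Adamts15 was low, at 2.76, 15.8, 2.42 and 7.69, yet higher in both pairs. For these 3 genes, each surgery library lay above both shams. Inside single clusters of BeAT the calls were mostly lost. Adamts9 stood at 116.8 and 193.2 in cluster 5 and 100.7 and 188.9 in cluster 6, not called in either. Adamts2 stood at 92.7 and 131.9 in cluster 5, not called, and at 51.3 and 132.2 in cluster 6, called higher. Adamts15 gave under 50 UMIs in each, at ratios of 7 and 2.91. Gpx5 stood at 577.1 in adipocyte-like nuclei of BAT surgery, and Adamts9 at 6.06 in macrophage-like nuclei of that library, where Gpx5 stood at 1038.5. Free RNA need not reach each class or gene alike, and its part in the Adamts9 values of adipocyte-like nuclei was not tested. Adamts12 and Mmp28, well counted in these nuclei, were called in neither pair, with Adamts12 at 334.6, 301.0, 312.2 and 316.6 and Mmp28 at 114.7, 160.1, 115.3 and 96.5.

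**Figure D4:**
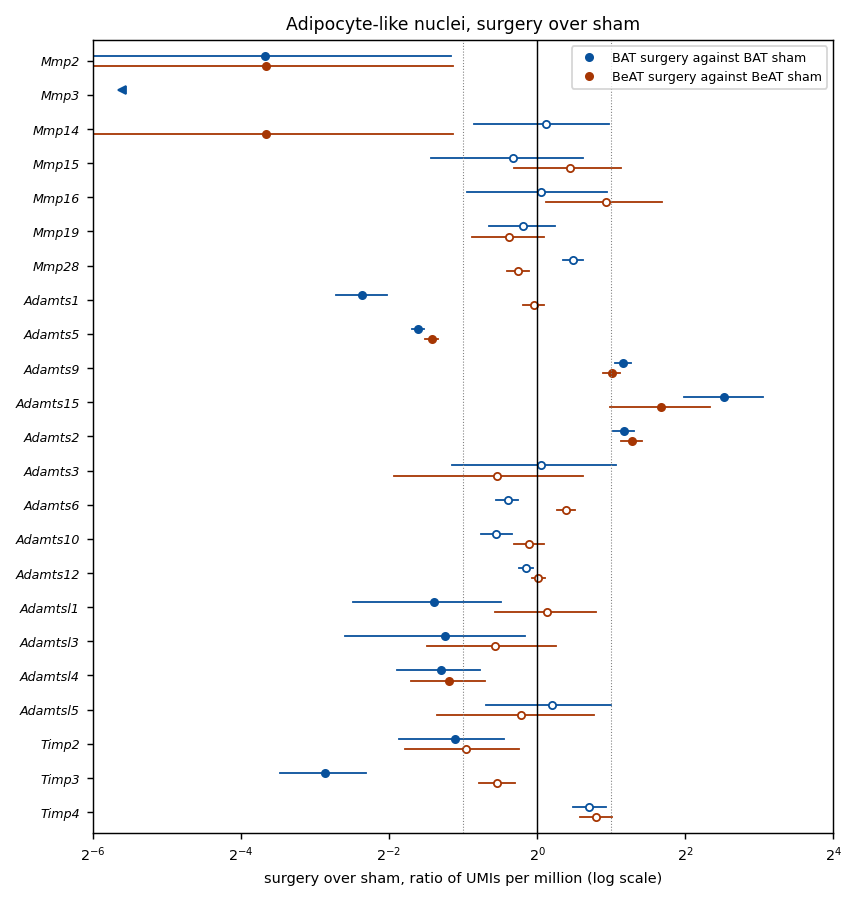
Surgery over sham ratio of CPM in adipocyte-like nuclei (x axis, log scale) for each measured member (rows), BAT in blue and BeAT in brown, with 95% counting intervals cut at the axis, filled points for called differences, a triangle for a surgery library at 0, and dotted lines at 2-fold. Adamts2, Adamts9 and Adamts15 lie at or right of the upper line and Adamts5 left of the lower line in both pairs.

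Timp3 was 7.27-fold lower in adipocyte-like nuclei of BAT surgery (4.98 to 11.1), at 54.5 against 7.49, and stood at 55.2 and 38.0 in BeAT, which was not called. Inside cluster 5 of BeAT it was called lower, at 66.4 against 27.4, and inside cluster 6 it stood at 49.7 and 43.8. Adamts1 was 5.15-fold lower in BAT surgery (4.09 to 6.58), at 105.7 against 20.5, and stood at 122.9 and 119.1 in BeAT. Inside cluster 6 of BeAT it was called lower, at 107.5 against 47.1, and inside cluster 5 it stood at 231.7 and 273.2. Timp4 was called in neither pair, at 36.3, 59.4, 33.1 and 57.5, with both surgery libraries above both shams. Mmp2, Mmp3, Mmp14, Adamtsl1, Adamtsl3, Adamtsl4 and Timp2 stood under 21 CPM in all 4 libraries in these nuclei. In the shams, Mmp2 and Mmp3 stood lower in them than in macrophage-like nuclei, as with Mmp3 at 2.17 against 4.55 in BAT sham. What free RNA adds to the calls of Mmp2, Mmp3 and the others named with them was not tested.

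The 5 lists were read in adipocyte-like nuclei too. Over all measured genes there, 5.33% were called higher and 12% lower in BAT, and 4.36% and 15.2% in BeAT. Here too a count of 0 or 1 is not read as a result about a list. Of 9 measured ADAM metalloproteases, 3 were higher and 1 lower in BAT surgery, and 3 higher and 0 lower in BeAT surgery. Adam12 was higher in both, at 131.3 against 405.3 in BAT and 132.5 against 445.0 in BeAT. Of 11 collagen, fibrillin and elastic fibre genes in BAT, 2 were higher and 4 lower, and of 10 in BeAT, 1 was higher and 3 lower. Col5a1 was higher and Col1a1 lower in both pairs. Of 5 activators, 0 were higher and 1 lower in each pair. Of 7 inhibitors, 0 were higher and 2 lower in each pair, Serpinf1 in both. Of 5 proteoglycan genes, 1 was higher and 2 lower in BAT, and 0 higher and 3 lower in BeAT, with Dcn and Lum lower in both.

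Macrophage-like nuclei carried the second gelatinase. In BAT, 17 members were measured, with 1 higher and 7 lower in surgery, against 4.8% and 10.5% of all measured genes. In BeAT, 10 were measured, with 2 higher and 6 lower, against 7.74% and 14.9%. Mmp9, the gelatinase of myeloid cells (chromosome 2, 164940780 to 164955850, plus strand), stood at 49.6 and 10.2 in the BAT pair and 37.3 and 7.35 in the BeAT pair. It was 4.85-fold lower in BAT surgery (3.34 to 7.27) and 5.08-fold lower in BeAT surgery (2.22 to 14.3), the latter on 71 and 6 UMIs.

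Mmp14 was higher in macrophage-like nuclei of both surgery libraries, against its direction in progenitor-like nuclei. Its level was 7.27 and 32.6 in the BAT pair and 5.26 and 68.6 in the BeAT pair, from 32, 102, 10 and 56 UMIs. The ratio was 4.47 in BAT (2.98 to 6.88) and 13 in BeAT (6.59 to 28.7). The higher levels were those of cluster 19. In cluster 19, led by Saa3, Rgs1 and Msr1, the levels were 7.58, 69.2, 5.5 and 103.2, while in cluster 7, led by F13a1, Cd163 and Mrc1, the surgery over sham ratio was 0.766 in BAT, from 28 and 10 UMIs, and 0.69 in BeAT, from 6 and 1. Cluster 19 also held more of the class after surgery: 143 of 1254 nuclei in BAT sham and 412 of 960 in BAT surgery, and 226 of 640 and 147 of 223 in BeAT.

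Mmp9 was lower inside cluster 7 in both pairs, at 54.5 against 15 in BAT and 59.6 against 14.1 in BeAT, while inside cluster 19 it gave 7 and 5 UMIs in BAT and 1 and 2 in BeAT, too few for a direction. Timp2 stood at 350.8, 223.1, 376.9 and 156.7, and in BeAT at 490.9 and 236.0 inside cluster 7 and 192.6 and 114.5 inside cluster 19. Mmp19 was lower in BeAT surgery, at 35.2 against 7.35, with 19 and 5 UMIs inside cluster 7, a ratio of 1.09, and 48 and 1 inside cluster 19. Mmp13, the only collagenase above 50 UMIs, stood at 4.55, 1.6, 9.46 and 0. Adamts5, Adamts12 and Timp3 were lower in both pairs here, Adamts5 at 122.5, 10.9, 83.1 and 2.45 and Timp3 at 36.4, 2.23, 48.4 and 4.9. Adipoq differed the same way in these nuclei, as given above, and its part in those 3 results was not tested. Inside cluster 7, 5 of 12 measured members were called in BAT, against 15.1% of all measured genes, and 4 of 6 in BeAT, against 19.9%. Inside cluster 19, 4 of 5 were called in BAT, against 21%, and 2 of 4 in BeAT, against 24.7%.

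**Figure D5:**
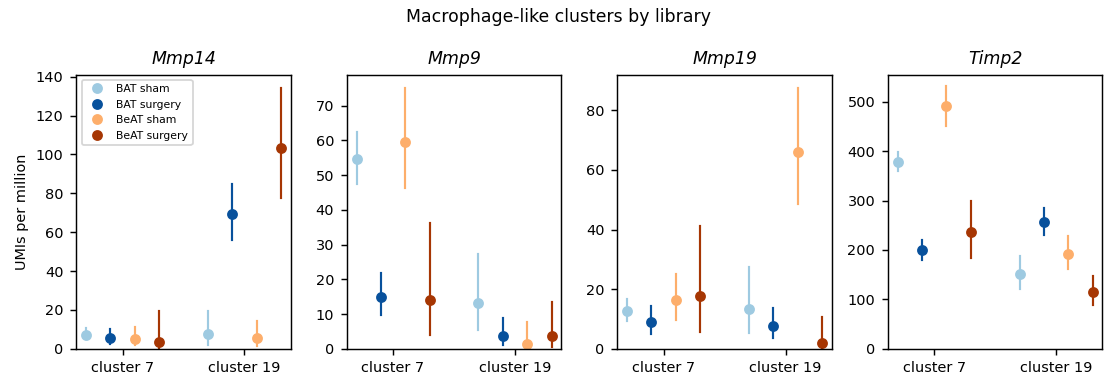
CPM of Mmp14, Mmp9, Mmp19 and Timp2 (panels) in macrophage-like clusters 7 and 19 by library (colours), with 95% counting intervals. Mmp14 reaches 69.2 and 103.2 in cluster 19 of the surgery libraries and stays low in cluster 7, and Mmp9 in cluster 7 is lower in both surgery libraries.

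Of the 5 main classes, endothelial-like nuclei held the highest level of Adamts9, which stood there at 779.5 (sham) and 1122.0 (surgery) in BAT and at 608.3 and 889.1 in BeAT, above sham but under the 2-fold limit in both pairs. In BAT, 17 members were measured, with 2 higher and 5 lower, against 5.27% and 12.7% of all measured genes. In BeAT, 13 were measured, with 1 higher and 4 lower, against 12.6% and 21.1%, shares near the background. Timp4 was lower in both pairs, at 238.8 against 71.1 in BAT and 323.9 against 160.8 in BeAT, where inside cluster 3 it stood at 397.6 and 231.1, under the limit. Timp3 was 2.21-fold lower in BAT surgery (1.92 to 2.57), at 872.2 against 393.8, and stood at 974.3 and 534.4 inside cluster 3, under the limit. Adamts18 was 4.19-fold higher in BAT surgery (2.67 to 6.6), at 19.7 against 82.6.

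Clusters 3 and 11 made up the endothelial-like class. Inside cluster 11, led by Cytl1, Selp and Eln among others, Adamts9 was 3.78-fold higher in BAT surgery (3.11 to 4.61), at 363.7 against 1376.3, and Adamts18 stood at 57.9 and 202.7, but gave 13 and 5 UMIs inside cluster 3. Inside cluster 3, Timp4 was 2.84-fold lower in BAT, at 298.7 against 105.1, and 4 of 13 measured members were called there, against 17.2% of all measured genes. The Gpx5 level in endothelial-like nuclei of BAT surgery was 2730.0, and epithelial-like nuclei of that library held Adamts9 at 319.6, and their part in the Adamts9 values was not tested.

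Pericyte-like nuclei, the mural cells of small vessels, held the highest Timp3 levels of the 5 main classes, at 2300.0 and 1856.5 in the BAT pair and 1638.0 and 2153.2 in the BeAT pair. Of 13 members measured in BAT, 0 were higher and 0 lower in surgery, against 4.57% and 7.6% of all measured genes; with 50 nuclei in BAT surgery the counts were small. The 49 nuclei of BeAT surgery were too few to compare.

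Lymphocyte-like and dendritic-like nuclei carried a few members. In T or NK-like nuclei of BAT, 0 of 3 measured members were higher in surgery and 1 lower, against 3.11% and 6.37% of all measured genes. In BeAT, 1 of 5 was higher, Adamts6, and 2 were lower, Adamts14 and Adamts12, against 7.06% and 11.4%. Adamts14, a procollagen N-proteinase, stood there at 109.9 and 37.6 CPM in BAT and at 85.3 and 5.58 in BeAT, 2.93-fold lower in BAT surgery (1.42 to 6.77) and 15.3-fold lower in BeAT surgery (8.55 to 27.6). Cluster 17 (Klra7, Ncr1, Gzma) made up 34.7% and 17.5% of the class in the BAT pair and 26.7% and 1.6% in the BeAT pair. It held Adamts14 at 269.5 in BAT sham and 209.5 in BeAT sham, against 17.7 and 18.7 in cluster 15, the rest of the class. Inside cluster 15 the gene gave 5 and 1 UMIs in BAT and 4 and 11 in BeAT, too few for a call. Adamts6 stood at 143.5 and 91.8 in BAT and at 88.4 and 299.9 in BeAT, higher in BeAT surgery at a ratio of 3.39 (2.35 to 5.09), and 2.69 inside cluster 15 (1.8 to 4.22). In dendritic-like nuclei of BeAT, 2 of 3 measured members were higher in surgery, Adamts6 and Mmp25, and 0 lower, against 14.6% and 12.6% of all measured genes. Mmp25, a membrane-type MMP of leukocytes, was higher in BeAT surgery on 5 and 82 UMIs. Cluster 22 (Apol7c, Mreg, Ccr7) held 78 of the 124 UMIs of the gene in that library. That cluster was 18.4% of dendritic-like nuclei in BeAT sham, or 16 nuclei, and 47.1% in BeAT surgery, while cluster 20 was 78.2% and 30% and gave 3 and 2 UMIs of Mmp25.

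The 2 sham libraries were compared in the same way. In adipocyte-like nuclei, 0 of 24 measured members were called between BAT sham and BeAT sham, against 1.85% of all measured genes higher in BAT sham and 1.09% lower. In progenitor-like nuclei, 1 of 27 was called, Adamts16, at 26.5 in BAT sham and 8.65 in BeAT sham, against 2.19% and 1.17%. In macrophage-like nuclei 1 of 15 was higher and 1 lower, against 2.29% and 2.4%, Adamtsl5 higher and Mmp19 lower in BAT sham. In endothelial-like nuclei, 2 of 18 were higher and 0 lower, against 1.89% and 3.26%, and in pericyte-like nuclei 1 of 18 was higher and 0 lower, against 3.9% and 3.03%.

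Over whole libraries, fewer cells of a type and less RNA per cell cannot be told apart. In BAT, 6 of 41 measured members were higher in surgery and 23 lower, against 22.4% and 18.1% of all measured genes, and in BeAT 6 of 35 were higher and 16 lower, against 20.8% and 22.1%. Between the shams, 5 of 38 were higher in BAT sham and 1 lower, against 5.59% and 2.12%. Mmp7, matrilysin, an epithelial MMP, gave 0 UMIs in BAT sham and BeAT sham, 1309 in BAT surgery and 12 in BeAT surgery. Epithelial-like clusters 33 and 35 held 1025 of the 1309, or 78.3% (exact binomial interval 76 to 80.5), and 286 of the 467 nuclei of cluster 33 had a UMI of it. Adamts9 was higher over the whole BAT surgery library, at 127.7 against 284.2, and epithelial-like clusters held 83.8% of its UMIs there.

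The remaining members are accounted for here. Mmp1b, Mmp8, Mmp10, Mmp20 and Mmp21 gave 4 to 22 UMIs over all 4 libraries. Mmp13, Mmp17, Mmp24, Adamts4, Adamts7, Adamts8, Adamts13, Adamts17, Adamts20 and Adamtsl2 had 64 or more UMIs but were called in no class between surgery and sham. Mmp15, a membrane-type MMP, was lower over both whole surgery libraries, at 5.63 against 2.68 in BAT and 5.84 against 2.79 in BeAT. In adipocyte-like nuclei it stood at 3.47 and 2.77 in the BAT pair and 3.77 and 5.13 in the BeAT pair, called in neither. In the annotation, Timp1, Timp3 and Timp4 lie within Syn1, Syn3 and Syn2 on the opposite strand. Whether counting used the strand is not stated, so reads of these pairs cannot be told apart, and the same holds for Mmp19 and its antisense gene Gm47093. Other members overlap a gene in part. Adamts9 shares 18% of its length with A730049H05Rik, 8.81% with Gm15737 and 1.85% with 9530026P05Rik, all on the opposite strand. The last gave 94537 UMIs over the libraries, against 25670 of Adamts9. Adamtsl1 shares 125.0 kb with Sh3gl2 on its own strand, and Sh3gl2 gave 16203 UMIs. What such overlaps add to the levels was not tested.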

How the data were processed

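The deposited files hold whole-number UMI counts per gene and barcode for 4 libraries, made by the authors. The submitters' processing notes name mm10 and Seurat 4.4.0; no source used here names the aligner, the counter or the use of strand. The tissue was processed by a SeekGene protocol, per the labels' protocols. Barcodes were kept from 500 UMIs and 300 genes upward, with mitochondrial UMIs under 10%. Doublets were called by scrublet in scanpy 1.11.5; in BeAT sham its automatic limit marked 0, so the highest-scoring 6% were removed. Nuclei were clustered on 2000 variable genes without the members, 30 components and a Leiden resolution of 1. Clusters were named from marker lists, with limits chosen after the clusters were seen.

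UMIs were summed per class and library and scaled to 1000000 UMIs of the class (CPM). Ratios carry exact conditional binomial 95% intervals and levels exact Poisson ones (scipy 1.17.1), which cover counting error only, and a ratio with 0 counts on 1 side is given as a bound, with 3 UMIs in place of the 0. Classes under 50 nuclei were not compared. The call rule was tested on simulated data. Values are printed for members called in at least 1 class and pair, for the best-counted member of each role group and for the TIMPs, and up to 4 called genes of each other list are named where they had the largest ratios. The members and lists were chosen with earlier results of these data known. Alternatives were another minimum count, scaling, clustering, doublet treatment, thinning, a trend on gene span, the other sham library and single clusters.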

Additional observations from a re-analysis of the deposited data

Results flagged for a closer look

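In progenitor-like nuclei, 3 members were called in opposite directions in the 2 pairs, and the difference between the pairs was not tested. The surgery over sham ratio of Adamts9 was 3.57 in BAT and 0.279 in BeAT. That of Adamts15 was 5.12 in BAT and 0.483 in BeAT, and 1.54 inside cluster 9 of BeAT. That of Adamtsl3 was 0.301 in BAT and 2.11 in BeAT, and 0.0878 inside cluster 13 of BAT. The clusters that held most progenitor-like nuclei differed between the pairs, as given above.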

How the results depend on the processing

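No paired analysis was possible because each group is 1 library. Of the alternative counts, 77 stayed within 1.5 times the reported count and 28 did not, and of the alternative ratios, 514 kept their call, 161 lost it without turning and 9 reversed. With doublets kept, progenitor-like nuclei of BAT surgery came to 42, under the minimum of 50, so nothing was computed for them. Thinning to 1000 UMIs lowered the called members in adipocyte-like (BAT 12 to 4), endothelial-like (BAT 7 to 3, BeAT 5 to 1, shams 2 to 0), macrophage-like (BAT 8 to 3, BeAT 8 to 1) and progenitor-like nuclei (BeAT 15 to 6), and the members highest in progenitor-like nuclei to 8 of 14 in BeAT surgery; it also leaves fewer members measured. With doublets kept, calls went to 4 in endothelial-like nuclei of BAT and to 3 in progenitor-like nuclei of the shams. A minimum of 10 UMIs gave 15 calls in macrophage-like nuclei of BeAT, and 2, 2, 4 and 5 in adipocyte-like, progenitor-like, endothelial-like and macrophage-like nuclei of the shams. Endothelial-like calls were 3 in BeAT when clustering used the members, 1 in BeAT against the other sham library, and 1 between shams with median-of-ratios size factors or with the span trend taken off. Inside single clusters, chosen after seeing the data, calls were 9 in cluster 13 (BAT) and 9 in cluster 18 (BeAT), 4 in cluster 3 (BAT), 3 and 4 in clusters 5 and 6 (BeAT), 5 and 4 in cluster 7 (BAT, BeAT), and 4 and 2 in cluster 19. Reversed ratios in progenitor-like nuclei were, inside cluster 13, Mmp16 at 0.622, inside cluster 9, Adamts15 at 1.54 and Adamts1 at 0.789, and with the span trend taken off in BeAT Mmp23 at 1.18. In macrophage-like nuclei they were Mmp14 at 0.766 (BAT) and 0.69 (BeAT) and Mmp19 at 1.09 (BeAT) inside cluster 7, and, from 3 UMIs in all, Mmp9 at 2.73 (BeAT) inside cluster 19. Adamtsl1 between the shams was 0.678 in endothelial-like nuclei with doublets kept. Other than where the construction shows it, the cause was not tested. With 1 library a group, no difference can be set against the spread between animals.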

Other observations

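Cluster 37, led by Csmd1, Pcdh15 and Nxph1 and left unnamed, was made of 165 nuclei of BeAT surgery. It held 568 of the 638 UMIs of Adamts17 in that library, or 89% (86.3 to 91.3), 148 of the 185 UMIs of Adamts20 and 34 of the 60 of Adamts13. In BAT surgery, epithelial-like clusters 31 and 34 held 270 of the 405 Adamts17 UMIs. In the sham libraries Adamts20 was highest in Schwann-like nuclei, at 168.2 in BAT sham and 269.3 in BeAT sham. Adamtsl1 stood in lymphatic endothelial-like nuclei at 1316.9 in BAT surgery and 59.6 in BeAT surgery.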
